A study of Homo sapiens with 4 samples.

Results

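The immunoglobulin and T-cell receptor V genes were examined in RAD21 ChIP-seq of HCT116 cells, a human colon carcinoma line of epithelial and not lymphoid origin. All genes of the GENCODE version 44 annotation on chromosomes 2, 7, 14 and 22 whose type is immunoglobulin V gene or T-cell receptor V gene were taken, which gave 238 of 62700 annotated genes. Of these, 236 lie in 6 loci, and 2 are orphons, copies displaced from their locus, on chromosome 2. A locus ran from its first to its last V gene with 50 kb added on each side, and a peak belonged to a locus by its summit, the position of highest signal. The 6 loci held 234 of the 56853 peaks of the list.

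The study comprised 4 libraries without replicates. RAD21, a core subunit of the cohesin ring, was precipitated from untreated wild-type HCT116 cells and from HCT116_RAD21_AID cells, a clonal derivative in which RAD21 carries the mAID degron and OsTIR1 is expressed, either untreated or treated with the auxins IAA and α-NAA, each at 500 μM, for 6 h. The fourth library was the Input, chromatin that was not precipitated, of the auxin-treated cells. All values below were taken from the list of the untreated wild-type cells. The remaining 3 libraries were not analysed here. With 1 library no test between conditions was possible, and the intervals given for fragment numbers are exact 95% Poisson intervals that cover counting error only. The list gives no read totals, so that depth is expressed here by the fragments at each summit, with a median of 55 in the loci and 48 over chromosomes 1 to 22, X and Y.

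V genes encode most of the antigen-binding part of antibodies and T-cell receptors. In developing lymphocytes the RAG recombinase joins a V gene to a D or J segment at recombination signals, which consist of a heptamer, a spacer and a nonamer next to the coding part of each segment. Cohesin extrudes chromatin loops and is halted mainly at sites of the zinc finger protein CTCF, whose asymmetric motif faces the inside of the loop, and such loops bring distant V genes near the D and J segments in lymphocytes. In cells of other lineages, these genes normally stay unrecombined.

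Sequences next to V genes are shown first, as examples of sites with a summit and of similar sites without one, and all are from the GRCh38 (hg38) reference. The genome of the HCT116 line itself was not examined. In the immunoglobulin heavy-chain locus (IGH), summits lay just beyond the recombination signal. In the sequences below, read along the V gene from the first base of the heptamer, capitals mark the heptamer, the nonamer and the 20-base match to the CTCF matrix, in this order. IGHV3-15, IGHV3-7, IGHV4-34 and IGHV4-4 had a summit in the 500 bases after the gene, and IGHV3-73 and IGHV3-20 had a match but no summit there.
IGHV3-15, chr14:106153514-106153621, reverse strand: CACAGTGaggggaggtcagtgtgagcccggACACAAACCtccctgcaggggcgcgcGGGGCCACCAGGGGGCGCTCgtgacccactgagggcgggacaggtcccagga
IGHV3-73, chr14:106802584-106802691, reverse strand: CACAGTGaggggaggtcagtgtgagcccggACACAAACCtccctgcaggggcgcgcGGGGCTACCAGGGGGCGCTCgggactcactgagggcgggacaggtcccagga
IGHV3-20, chr14:106210826-106210935, reverse strand: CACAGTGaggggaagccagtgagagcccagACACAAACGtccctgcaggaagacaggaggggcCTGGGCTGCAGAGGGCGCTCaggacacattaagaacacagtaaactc
IGHV3-7, chr14:106062041-106062148, reverse strand: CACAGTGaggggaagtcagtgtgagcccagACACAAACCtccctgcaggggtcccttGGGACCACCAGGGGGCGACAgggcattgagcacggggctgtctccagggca
IGHV4-34, chr14:106373553-106373660, reverse strand: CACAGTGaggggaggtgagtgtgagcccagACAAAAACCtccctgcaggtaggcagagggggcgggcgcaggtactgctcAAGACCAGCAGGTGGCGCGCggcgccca
IGHV4-4, chr14:106011812-106011921, reverse strand: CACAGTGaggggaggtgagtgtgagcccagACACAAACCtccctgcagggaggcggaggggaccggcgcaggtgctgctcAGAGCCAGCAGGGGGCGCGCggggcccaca

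In the other loci most summits close to V genes lay before the gene. The 40-base stretches below are read along the V gene, and capitals mark the match to the CTCF matrix. They are shown as the sites under the most enriched summits close to V genes of the lambda light-chain (IGL), T-cell receptor alpha and delta (TRA/TRD), gamma (TRG) and kappa light-chain (IGK) loci. IGKV6D-41 is shown as a family member of IGKV6-21, and TRAV20 as a site of high score, 21.5 bits, without a summit, and these were chosen after their values were seen.
IGLV6-57, chr22:22195490-22195529, forward strand: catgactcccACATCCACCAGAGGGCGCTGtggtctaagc
IGLV1-47, chr22:22357447-22357486, forward strand: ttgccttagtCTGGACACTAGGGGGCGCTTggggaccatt
TRAV41, chr14:22319943-22319982, forward strand: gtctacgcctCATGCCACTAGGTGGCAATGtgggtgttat
TRAV40, chr14:22314363-22314402, forward strand: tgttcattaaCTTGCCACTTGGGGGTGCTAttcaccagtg
TRAV20, chr14:22040434-22040473, forward strand: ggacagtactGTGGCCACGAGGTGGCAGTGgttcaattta
TRGV9, chr7:38318990-38319029, reverse strand: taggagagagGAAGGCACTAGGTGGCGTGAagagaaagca
TRGV1, chr7:38368304-38368343, reverse strand: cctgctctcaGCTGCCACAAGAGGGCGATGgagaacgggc
IGKV6-21, chr2:89160490-89160529, reverse strand: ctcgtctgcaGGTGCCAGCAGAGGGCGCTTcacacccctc
IGKV6D-41, chr2:90069464-90069503, forward strand: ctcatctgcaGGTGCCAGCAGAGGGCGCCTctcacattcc

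The highest peak of each locus, apart from that of IGH, which is the IGHV4-34 site above, lay over the following matches, read along the strand of the motif. The T-cell receptor beta locus (TRB) is included here.
TRB, next to TRBD1, chr7:142783484-142783523, reverse strand: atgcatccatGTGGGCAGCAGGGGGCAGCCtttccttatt
IGK, beyond IGKV3D-7, chr2:90238072-90238111, reverse strand: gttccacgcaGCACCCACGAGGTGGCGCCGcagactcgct
IGL, beyond IGLV3-1, chr22:22884118-22884157, reverse strand: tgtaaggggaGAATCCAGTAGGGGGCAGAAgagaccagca
TRA/TRD, before TRDV2, chr14:22387575-22387614, forward strand: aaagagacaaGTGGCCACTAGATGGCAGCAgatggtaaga
TRG, before TRGV7, chr7:38335762-38335801, reverse strand: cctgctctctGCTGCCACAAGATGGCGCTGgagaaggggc

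RAD21 peaks were dense in these loci. There were 48.1 peaks per Mb of known sequence, against 19.2 per Mb over chromosomes 1 to 22, X and Y. The density was 62.3 per Mb in TRG with 11 peaks, 60.4 in IGH with 60 peaks, 56.8 in IGL with 54 peaks, 47.3 in TRB with 29 peaks, 40.6 in IGK with 48 peaks and 33.8 in TRA/TRD with 32 peaks. Each locus exceeded its own chromosome, whose density was 18.5 per Mb for chromosome 7, 17.8 for chromosome 2, 19.8 for chromosome 14 and 33.3 for chromosome 22. Of the 234 peaks, 213 lay between the outermost V genes and 21 in the added flanks. Fold enrichment, the ratio of ChIP fragments to the local background with 1 added to each, ranged from 1.26 to 46.7, with a median of 6.71 against 5.62 for all peaks. A fold enrichment of at least 10 was reached by 30.3% of the locus peaks, and by 27.3% of all peaks, so that the loci differed from the genome more in the number of peaks than in their height.

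**Figure D1:**
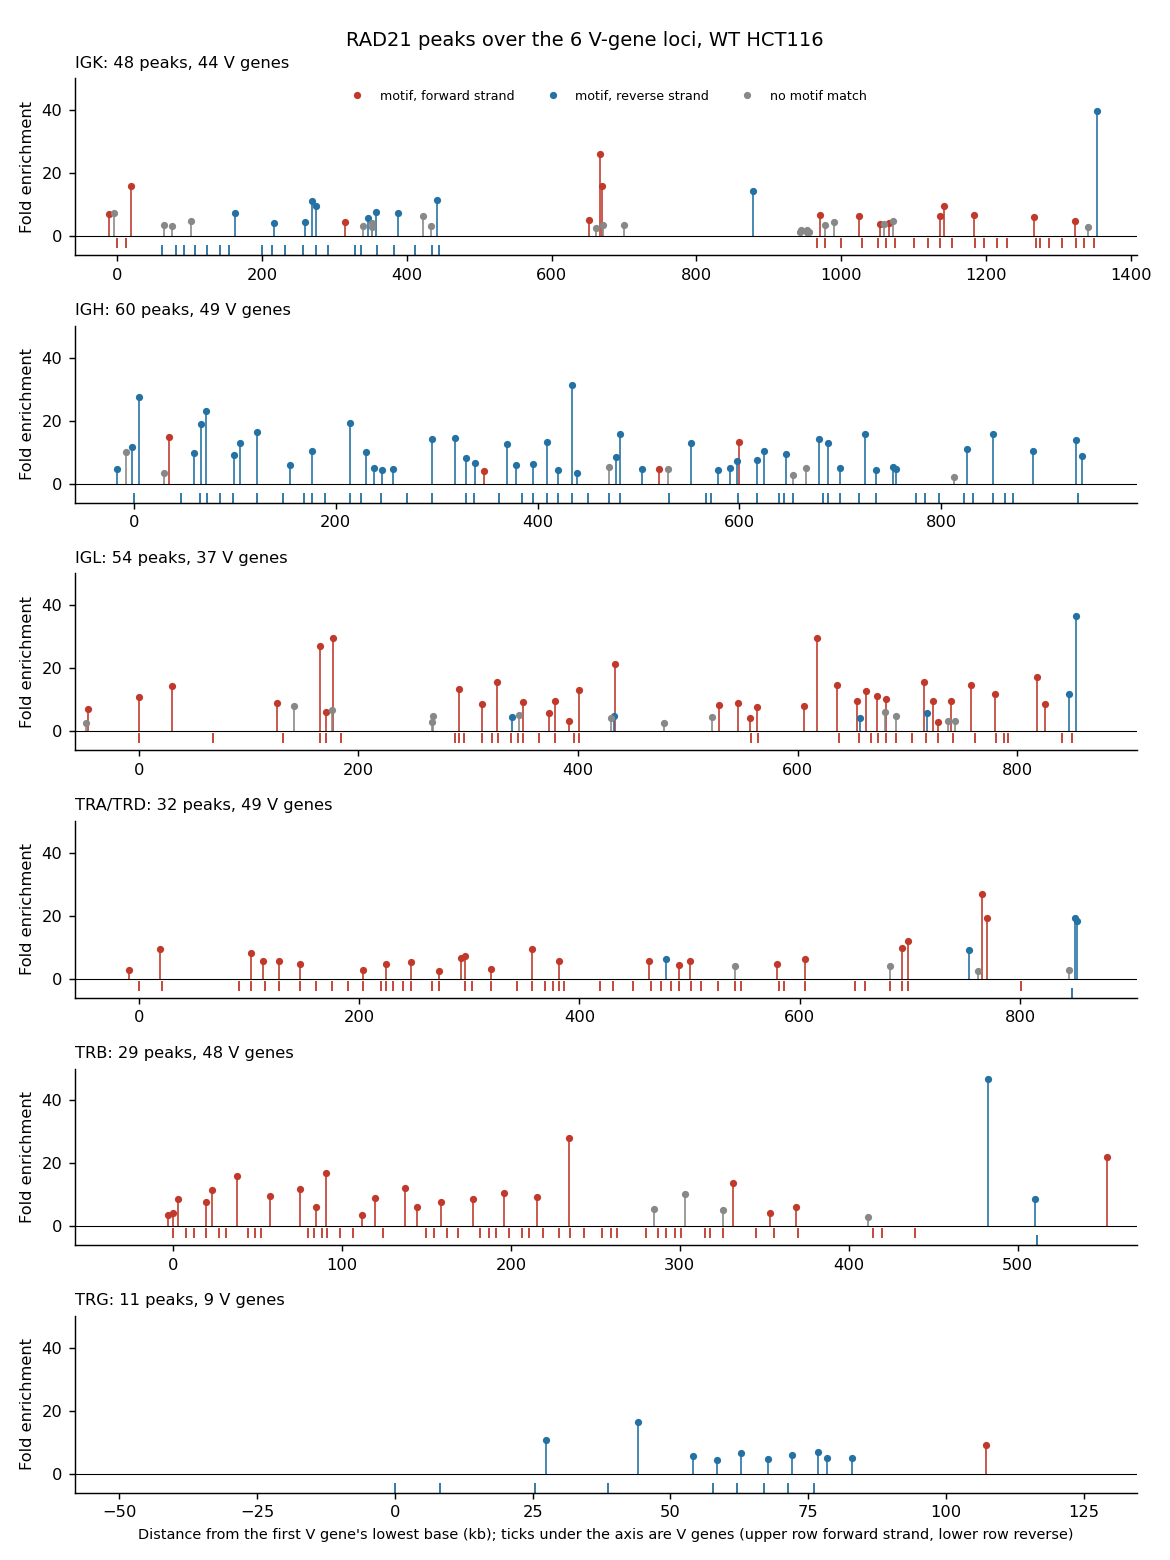
Fold enrichment (vertical axis, ratio) of each RAD21 peak against the distance from the lowest base of the first V gene in kb (horizontal axis), with 1 panel per locus in wild-type HCT116 cells. Red and blue mark summits with a CTCF matrix match on the forward and reverse strand, grey those without, and the ticks mark V genes on the forward (upper row, red) and reverse (lower row, blue) strand. The colour of the peaks follows that of the V genes over most of each locus, while the tall peaks at the upper ends of IGK and IGL, at 39.7 and 36.5, carry the other colour.

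A summit within 5 kb of the annotated start was found for 137 of the 236 V genes (58.1%). The same held for 16.1% of known bases of the genome, 48.4% of protein-coding genes, 7.3% of the olfactory receptor genes of chromosome 11 and 75.5% of the clustered protocadherin genes, which are further tandem gene families. By locus the count was 7 of 9 in TRG, 28 of 37 in IGL, 30 of 49 in IGH, 26 of 49 in TRA/TRD, 25 of 48 in TRB and 21 of 44 in IGK. The V genes of IGK, TRB and TRA/TRD, at 47.7%, 52.1% and 53.1%, were thus near the share of protein-coding genes, and those of IGL and TRG near that of the protocadherins. Within 1 kb of the start there was a summit for 69 V genes (29.2%), against 3.74% of known bases. The share of protein-coding genes was not counted at 1 kb. At 5 kb it was well above that of known bases, so that the 1 kb values do not set V genes apart from other gene starts. In all, 148 summits lay within 5 kb of a V gene start, and some served several neighbouring V genes.

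**Figure D2:**
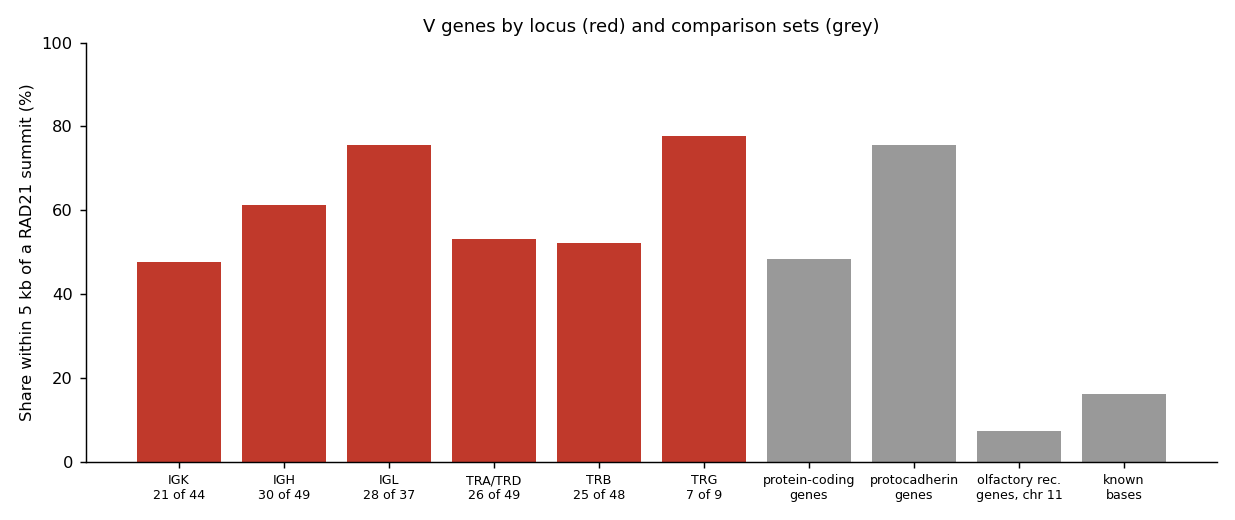
Share of genes whose start lay within 5 kb of a RAD21 summit (vertical axis, percent, from 0), for the V genes of each locus in red, with counts below, and for comparison sets and known bases in grey. The 6 loci range from 47.7% in IGK to 77.8% in TRG, and the olfactory receptor genes stand at 7.3%.

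At shorter range the loci differed in where the summit lay. In the 500 bases before the start, 40 of 236 V genes had a summit (16.9%), against 10.6% of protein-coding genes. In the 500 bases after the end, 21 had a summit (8.90%), against 2.77% of protein-coding genes. Inside a V gene there was 1 summit, in TRGV4. In IGH, 19 of the 49 V genes had a summit after the gene and 0 before it. In IGL, TRA/TRD and TRG, 12 of 37, 17 of 49 and 5 of 9 V genes had a summit before the gene, and 0 after it. IGK had 3 V genes with a summit before and 2 with a summit after, and TRB had 3 before and 0 after. Peaks in these windows, of V genes and V pseudogenes together, made up 83 of the 234 peaks (35.5%), among them 36 of the 60 peaks of IGH, 17 of the 32 of TRA/TRD and 8 of the 11 of TRG.

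**Figure D3:**
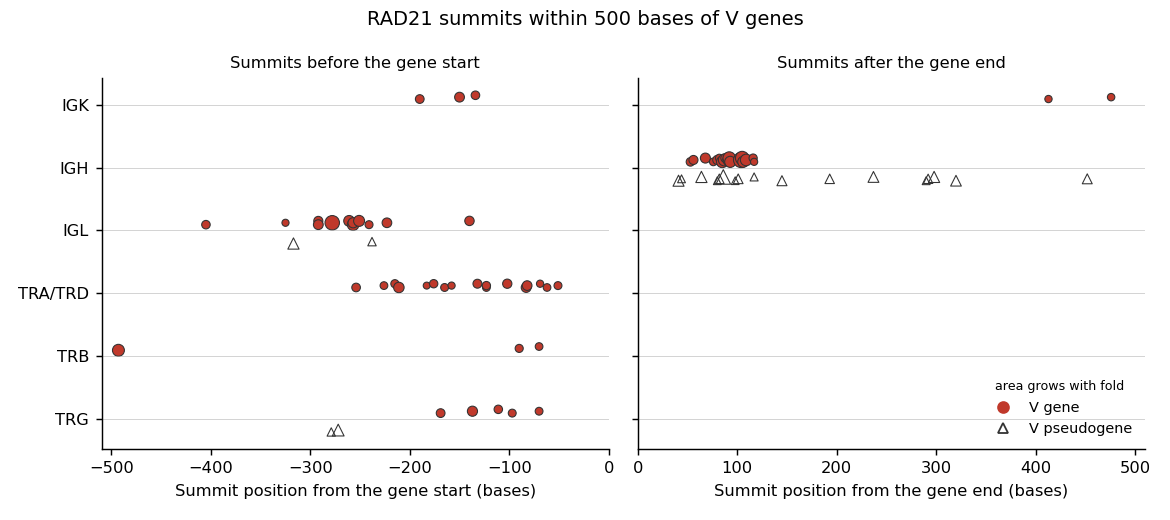
Position in bases of each RAD21 summit before the start (left) or after the end (right) of V genes (filled circles) and V pseudogenes (open triangles), within 500 bases, by locus, with the symbol area growing with fold enrichment. The IGH summits of V genes lie 53 to 117 bases after the end, whereas those of IGL and TRA/TRD lie 140 to 405 and 51 to 254 bases before the start.

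The IGH summits were confined within the 500 bases to a narrow interval beyond the V gene, 53 to 117 bases after its end, with a median of 91. A recombination signal, searched for as a heptamer close to CACAGTG and a nonamer close to ACAAAAACC, was found next to 48 of the 49 V genes of IGH, each with the long spacer of about 23 bases. Counted from the first base of the heptamer, the 19 summits lay 50 to 116 bases away, with a median of 89, and hence beyond the nonamer. In the other loci, where a signal was found, no summit within 500 bases of a V gene lay within 150 bases of the heptamer. Apart from 2 after the end in IGK, these summits lay before the gene or near the start of TRGV4. The gene itself thus separated them from the heptamer, and the count largely restates the side on which the summits lay.

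These summits belonged to 2 IGHV families, IGHV3 with 13 of 22 members and IGHV4 with 6 of 7. The 10 IGHV1 genes, which are interspersed with them along the locus, had 0, as had the members of the smaller families IGHV2, IGHV5, IGHV6, IGHV7 and IGHV8. The sequence divided the families in the same way. A match to the CTCF matrix in the 500 bases after the gene was present in 20 IGHV3 genes, 6 IGHV4 genes, 1 IGHV8 gene and 0 IGHV1 genes, all 27 in the orientation of the V gene. The background share of protein-coding genes with such a match was 7.15%. All 19 genes with a summit had a match in this window, 8 had a match without a summit, and 22 had neither. The whole match lay within 50 bp of the summit at 17 of the 19. At IGHV3-38 and IGHV3-53 the middle of the match was 43.5 and 45.5 bases from the summit. Both are counted below with the sites that have a summit. The distance from the last base of the recombination signal to the match was 41 bases in each of the 6 IGHV4 genes with a summit, and 17 to 25 bases in the 13 IGHV3 genes. The remaining IGHV4 gene, IGHV4-28, scored 9.46 bits, below the threshold of 10.468 bits, and had no summit within 500 bases.

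Fold enrichment after the IGHV4 genes was 31.3 for IGHV4-34, 22.9 for IGHV4-4, 15.7 for IGHV4-39, 13.3 for IGHV4-31, 13.04 for IGHV4-59 and 5.07 for IGHV4-61. IGHV4-34, whose product is known for its autoreactivity, thus carried the highest peak of the heavy-chain locus, with 215 fragments (interval 187 to 246), 104 bases after the gene (chr14:106373663-106374145, reverse strand). The IGHV4-4 summit had 157 fragments (133 to 184). The IGHV4-61 site differs from that of IGHV4-34 by the substitution A2G, counted from 1 at the first base of the 20-base site, and scored higher, 18.9 against 18.3 bits, with the lower fold enrichment. IGHV4-59 and IGHV4-61 lie in partly duplicated sequence, as only 58.7% and 60.6% of the 100-base stretches over these genes occur once in the assembly, and reads of repeated sequence can be placed at another copy.

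Among the IGHV3 genes, several share a site or differ in it by 1 base. IGHV3-15 (chr14:106153624-106154163, reverse strand) had the highest score, 24.1 bits, and a fold enrichment of 19.1 with 199 fragments (172 to 229). IGHV3-72 differed from it by the substitution C18G, counted in the same way, and had a fold enrichment of 15.8. IGHV3-73 differed from the IGHV3-15 site by C6T alone, scored 15.6 bits, and had its nearest summit 12624 bases from its start, although 100% of the 100-base stretches over the gene occur once. The site of IGHV3-11 and IGHV3-21 is identical, and their fold enrichments were 10.3 and 14.1. The 100 bases around these summits occur 3 and 2 times in the assembly, so that reads can be placed at another copy. IGHV3-7 and IGHV3-48 also share a site, and theirs were 16.5 and 7.10. IGHV3-49 scored 22.4 bits, but its fold enrichment of 7.54 was within the range of the sites of lower score that follow. A further site of 15.1 bits is shared by 5 genes, and each had a low summit, with 7.98 at IGHV3-23, 6.23 at IGHV3-30, 5.36 at IGHV3-38, 4.20 at IGHV3-66 and 2.90 at IGHV3-53. IGHV3-33 and IGHV3-35 carry this site with G7T and score 14.4 bits, and IGHV3-33 had a summit of 4.19 whereas IGHV3-35 had none. IGHV3-30 and IGHV3-33 lie in repeated sequence, with 38.4% of their 100-base stretches occurring once.

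Above a score of 16 bits, a limit set after the values were seen, 13 of 14 sites had a summit, with fold enrichments of 5.07 to 31.3 and a median of 14.1. At or below it, 6 of 13 sites had a summit, of 2.90 to 7.98. The exception above the limit was IGHV3-20, with 16.6 bits and its nearest summit 14797 bases from its start. Over the 19 sites with a summit, Pearson's r between score and fold enrichment was 0.43 and Spearman's rho 0.59, which describe sites of related sequence in 1 library. Genes with an identical site differed in fold enrichment by up to 2.75-fold.

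**Figure D4:**
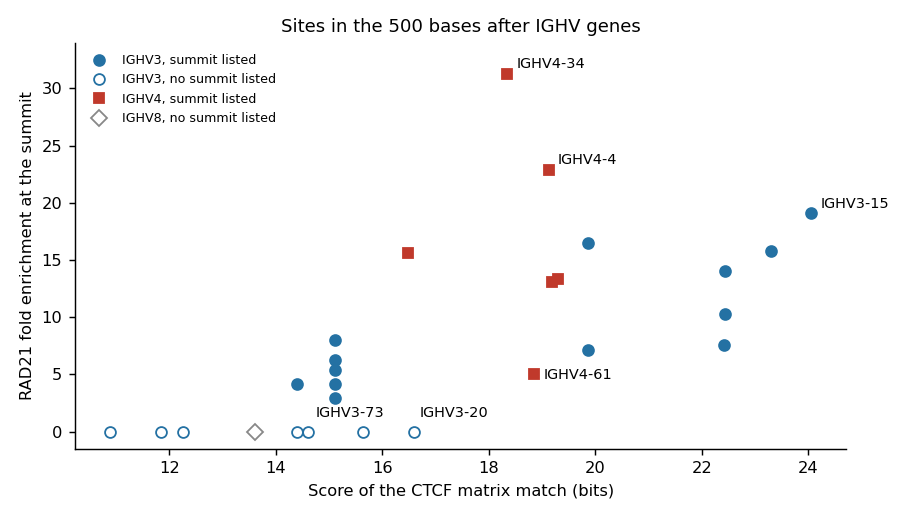
RAD21 fold enrichment at the summit (vertical axis, ratio) against the score in bits of the CTCF matrix match (horizontal axis) for the 27 matches in the 500 bases after IGHV genes, with open symbols at 0 for the 8 matches without a listed summit. IGHV3-15 at 24.1 bits and IGHV3-73 at 15.6 bits differ by 1 base, as do IGHV4-34 and IGHV4-61, at 31.3 and 5.07, whose scores run the other way, and the 5 genes sharing 1 site at 15.1 bits lie between 2.90 and 7.98.

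Of the 10 IGHV1 genes, 5 had a summit within 5 kb of the start. IGHV1-3, IGHV1-18 and IGHV1-24 had a summit 613, 619 and 634 bases before the start, the first with a fold enrichment of 18.9 and 143 fragments (121 to 168), each with a motif in the orientation of the V gene. IGHV1-69D had a summit 2535 bases before the start, and IGHV1-58 had one 4259 bases after the start. The 100 bases around the IGHV1-69D summit occur 2 times in the assembly, and 42.0% of the 100-base stretches over this gene occur once. Of the 77 V pseudogenes of IGH, genes that have lost their coding capacity, 17 also had a summit in the 500 bases after the end, at 41 to 452 bases, and 0 before the start. The highest of these followed IGHVII-1-1 with a fold enrichment of 27.6 and 366 fragments (329 to 405). It stood 4871 bases before IGHV6-1, the V gene nearest to the D segments, and its local background was 2.09 times the floor, the lowest background of the list.

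In IGL, 12 V genes had a summit 140 to 405 bases before the start, with a median of 259. The IGLV1 family contributed 5 of its 6 members, at 223 to 292 bases. Their fold enrichments were 15.7 for IGLV1-47, 13.5 for IGLV1-51, 12.98 for IGLV1-36, 9.70 for IGLV1-40 and 9.28 for IGLV1-44. The highest was at IGLV6-57 (chr22:22195799-22196276, forward strand), the 1 annotated V gene of its family, with 27.0 and 205 fragments (178 to 235). All 12 had a motif in the window, and the 5 V genes with a motif and no summit had scores of 13.9 to 17.3 bits, against 13.6 to 21.4 bits for those with a summit. A motif was thus present before 17 of the 37 genes, against 16.5% of protein-coding genes, and all 17 were in the orientation of the V gene. Away from the windows, the next highest peaks of the locus had fold enrichments of 29.6, located 20106 bases before IGLV3-27, and 29.5, located 5861 bases after IGLV11-55. The 100 bases around the summit of the former occur 2 times in the assembly. IGLV5-48 shares the summit of IGLV1-47, 4542 bases after its own start.

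The IGLV3 family, the largest of IGL, showed a second and more distant position. A summit lay 1449 to 1828 bases before the start of 7 of its 11 genes and 3 of its 12 pseudogenes, and 9 of these 10 summits had a motif on the V gene strand. Among the genes, fold enrichment there was 15.5 at IGLV3-16, 14.8 at IGLV3-27, 11.9 at IGLV3-10, 11.01 at IGLV3-22, 9.71 at IGLV3-12, 9.44 at IGLV3-25 and 6.23 at IGLV3-21, the last without a motif. The interval was chosen after the positions were seen.

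In TRA/TRD, where V genes of the alpha and delta chains are interleaved, 17 V genes had a summit 51 to 254 bases before the start, with a median of 132. These peaks were low, with fold enrichments of 2.45 to 11.8. The highest were TRAV41 (chr14:22320188-22320691, forward strand) with 11.8 and 84 fragments (67 to 104), TRAV40 with 9.82 and 77 fragments (61 to 96), and TRAV8-6 with 9.30 and 67 fragments (52 to 85). A motif stood in the window before 26 of the 49 genes, against 16.5% of protein-coding genes. All 26 were in the orientation of the V gene. Over all loci this held for 61 of 69 V genes with a motif before the start. It held for 31 of 41 with a motif after the end. Before the start the count was 8 of 8 in IGK and 6 of 7 in TRG, but 4 of 8 in TRB and 0 of 3 in IGH. After the end it was 2 of 6 in IGK, 0 of 3 in TRB and 0 of 2 in TRG. The orientation was not compared with that at protein-coding genes. Of the 26 TRA/TRD genes, 16 had a summit in the window before the start. The score did not separate them, as the median was 16.2 bits with a summit and 16.1 bits without. TRAV13-1, with 21.7 bits, had a fold enrichment of 5.16, and TRAV20, with 21.5 bits, had its nearest summit 37611 bases away. TRAV1-2, which encodes the receptor chain of mucosal-associated invariant T cells, had a summit of 9.56 with 81 fragments (64 to 101) at 1586 bases before the start. TRAV29DV5 was the 1 gene with a summit and no motif in its window.

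In TRG, summits stood before TRGV9, TRGV1, TRGV2, TRGV3 and TRGV5, at 70 to 169 bases, and 56 bases inside TRGV4. Their fold enrichments were 10.7 at TRGV9, with 73 fragments (57 to 92), 6.76 at TRGV1, 6.67 at TRGV4, 5.95 at TRGV2, 4.56 at TRGV3 and 4.35 at TRGV5. TRGV9 encodes the gamma chain of the main gamma-delta T cells of human blood. The V pseudogenes TRGV7 and TRGV5P had summits 272 and 279 bases before the start, and that of TRGV7, which is also 4851 bases before TRGV8, was the highest of the locus, with a fold enrichment of 16.3 and 139 fragments (117 to 164).

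TRB had few summits in the windows, before TRBV2, TRBV20-1 and TRBV9, with fold enrichments of 4.06, 5.03 and 16.8. Others recurred farther away. TRBV5-4, TRBV5-5, TRBV5-6 and TRBV5-7, 4 of the 6 TRBV5 genes, each had a summit 3259 to 3917 bases before the start. Fold enrichments were 7.66 to 10.5, with a motif in the V gene orientation in all 4. The nearest summit was 509 bases before the start of TRBV5-1 and 2196 bases after that of TRBV5-3. The interval was chosen after the positions were seen. The highest summit within 5 kb of a TRB V gene was 577 bases before TRBV13 (chr7:142535809-142536292, forward strand), with 28.0 and 192 fragments (166 to 221). It was followed by 16.8 for TRBV9 and TRBV5-3, which share a summit, 11.7 for TRBV6-4, at 4706 bases before the start, and 11.4 for TRBV5-1, at 3166 bases after the start.

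In IGK, the V genes form a proximal and an inverted distal array, which arose by duplication and are 521 kb apart, with 268 kb of unknown bases between. The 3 V genes with a close summit before the start were all the members of the IGKV6 family, IGKV6-21 with 9.70, IGKV6D-41 with 6.67 and IGKV6D-21 with 6.23. The highest summits within 5 kb of other IGK V genes were 39.7 at IGKV3D-7, described with the borders, 11.6 at IGKV2-40, 3758 bases after its start, 7.68 at IGKV2-30, 2091 bases after its start, and 7.41 at IGKV4-1. A peak of 15.9 lay 6178 bases from IGKV5-2. Of the 16 pairs of proximal and distal counterparts by name, 11 had their nearest summits at positions that agreed within 200 bases, with a median difference of 13 and a highest of 83 bases, and these 11 rested on 9 distinct pairs of summits. In the other 5 pairs the positions differed by at least 9137 bases. The 11 pairs also agreed in the presence and orientation of the motif, and the proximal summit had the higher fold enrichment in 9. Sequence shared by the copies moves with this agreement. In 3 of the 11 pairs the 100 bases around both summits occur more than once in the assembly, in 6 both occur once, and as few as 7.03% of the 100-base stretches over a V gene of the pairs occur once. The part of misplaced reads in the agreement was not tested.

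A CTCF matrix match within 50 bp of the summit was found at 184 of the 234 locus peaks (78.6%), against 55.8% of all peaks. It was more common among peaks in the windows next to V genes and V pseudogenes, at 74 of 83 (89.2%), than among the other locus peaks, at 110 of 151 (72.8%). The median fold enrichment was 7.54 in the windows and 6.34 elsewhere. IGH held 36 of the 83 window peaks, and the order was the reverse in TRA/TRD, with 5.16 in the windows and 6.31 elsewhere, and in TRB, with 5.03 and 8.81. In TRB the share with a match was also lower in the windows, at 66.7% of 3 peaks against 88.5% elsewhere. The match was on the strand of the nearest V gene at 164 of the 184 peaks (89.1%). It was so at 24 of 25 peaks in TRB, 26 of 28 in TRA/TRD, 49 of 53 in IGH, 10 of 11 in TRG, 35 of 41 in IGL and 20 of 26 in IGK. The TRB count includes 2 reverse motifs, that of the highest peak among them, whose nearest V gene is TRBV30, which is on the reverse strand unlike the rest of the array. In the windows this held for 74 of 74 matches, and elsewhere for 90 of 110. In IGK the strand of the motifs followed the inversion, with 9 reverse and 3 forward motifs up to the end of the proximal array, whose V genes are mostly on the reverse strand, and 9 forward and 1 reverse from the start of the distal array, where they are on the forward strand.

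The 20 motifs against the V genes included several of the highest peaks and stood in part at the ends of the loci. In IGK, the highest peak lay 2.70 kb beyond IGKV3D-7, the last distal V gene, with a fold enrichment of 39.7 and 273 fragments (242 to 307). In IGL, the highest peak lay 2.73 kb beyond IGLV3-1, the V gene nearest to the J segments, with 36.5 and 251 fragments (221 to 284), and a second one 3.79 kb inside this border also pointed back into the V genes, with 11.9. At the far end of IGL, 0.257 kb before IGLV4-69, the motif was forward, with 10.9. The motifs at both ends of IGL thus faced each other across the V genes.

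The IGH borders carried reverse motifs on both sides, 2.02 kb below IGHV6-1 with a fold enrichment of 11.6 and 4.30 kb above IGHV7-81 with 8.84. In TRA/TRD, the nearest summit before TRAV1-1 was 9.30 kb away with a forward motif and only 2.75, and that beyond TRDV3 was 2.00 kb away with a reverse motif, 19.1 and 143 fragments (121 to 168). A second reverse motif followed 3.46 kb beyond TRDV3 with 18.3. TRDV3 itself is on the reverse strand, so that these 2 motifs counted as being on the V gene strand while facing the forward motifs of the alpha and delta genes. The highest peak of the locus lay 34751 bases before TRDV2, inside the antisense transcript TRD-AS1, with 26.8, and 19.4 was reached by its neighbour.

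In TRB, the highest peak of all loci lay 2741 bases from TRBD1, a D segment, between the main V array and TRBV30, with a fold enrichment of 46.7 and 409 fragments (370 to 451), and 1.32% of all peaks were higher. Its motif was reverse and faced the forward motifs of the array. At the lower border the nearest summit was 70 bases before TRBV2, with 4.06. Beyond TRBV30, the nearest summit was 40.7 kb away and 0.992 kb from the receptor kinase gene EPHB6, with 21.8 and a forward motif. In TRG, the nearest summit was 69.0 kb below TRGV11, within STARD3NL, with 8.28, and 0.169 kb above TRGV1, with 6.76. IGK began with a summit of 7.41 without a motif, 4.81 kb below IGKV4-1. At the ends close to the J segments, the nearest summit outside the outermost V gene had 36.5 in IGL, 19.1 in TRA/TRD and 11.6 in IGH. It had 8.28 in TRG, beyond the added 50 kb, and 7.41 in IGK, whose peak of 39.7 stood at the other end. The nearest summit inside had 27.6 in IGH, 15.9 in IGK, 11.9 in IGL, 10.7 in TRG and 2.75 in TRA/TRD. That of TRA/TRD lay 896 bases from TRDC, the C gene of the delta chain, between it and the reverse-strand TRDV3. Its value is therefore not directly comparable with those of the other loci. The order of the loci differed between outer and inner summits, also with TRA/TRD set aside. TRB was left out here, as its peak of 46.7 lay between V genes.

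The longest distances between neighbouring summits within a locus were 210.5 kb in IGK, of which 200 kb are unknown bases, 96.2 kb in IGL around IGLV8-61, 82.3 kb in TRA/TRD with TRAV1-2 and TRAV2, 71.0 kb in TRB with TRBV27, TRBV28 and TRBV29-1, 57.7 kb in IGH with IGHV1-69, IGHV2-70D and IGHV1-69-2, and 24.3 kb in TRG. The IGH stretch holds repeated sequence, as 42.0% of the 100-base stretches over IGHV1-69 and 53.6% of those over IGHV2-70D occur once. Its upper edge is a summit of 2.18 whose surrounding 100 bases occur 3 times in the assembly. The part of misplaced reads in this distance was not tested. The TRG value leaves out the end of the locus at TRGV11, where the nearest summits lay 69.0 kb below and 27.4 kb above the lowest base of this gene. The median spacing of summits was between 4.61 kb in TRG and 21.2 kb in TRA/TRD. In the middle of IGK, 5 peaks had fold enrichments of 1.26 to 1.80 with a background of 11.9 to 93.6 times the floor, and none had a motif. The 4 peaks with a motif between the arrays had 5.01 to 25.9. The 100 bases around the summits of 5.01, 15.8 and 25.9 occur 2 times each in the assembly, and those around the summit of 14.2 occur once.

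Of the V pseudogenes, 92 of 171 had a summit within 5 kb of the start (53.8%), against 58.1% of V genes. IGH held 52 of the 92, with 67.5% of its V pseudogenes against 61.2% of its V genes. The share of V pseudogenes was lower in IGK (21.9% against 47.7%), TRA/TRD (22.2% against 53.1%) and IGL (50% against 75.7%). In TRB it was 75% of 12 against 52.1%, and in TRG 80% of 5 against 77.8%. A summit within 5 kb was found for 4 of 20 C genes, 7 of 97 J segments and 2 of 31 D segments, against 16.1% of known bases. D and J segments are closely packed, so that neighbours share the nearest summit. Both orphon V genes had a summit within 5 kb, with a motif against the gene. For IGKV3OR2-268 (chr2:87338511-87339035, forward strand) it lay 2703 bases after the end, with a fold enrichment of 56.4, higher than any peak of the loci, and 536 fragments. For IGKV1OR2-108 (chr2:113406396-113406872, forward strand) it lay 1035 bases after the end, with 3.93 and 29 fragments. The IGKV3OR2-268 summit resembled the highest peak of IGK, 2700 bases after the end of IGKV3D-7 and also with a motif against the gene. Over IGKV3D-7, 34.9% of the 100-base stretches occur once, and the 100 bases around its summit occur once. Whether the sites are copies of each other was not tested.

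The octamer ATGCAAAT, bound by the Oct factors, was searched for on both strands in the 250 bases before the start. It was present before 41 of 49 V genes of IGH, 28 of 37 of IGL and 27 of 44 of IGK, but before 1 of 49 of TRA/TRD, 1 of 48 of TRB and 0 of 9 of TRG, against 1.59% of protein-coding genes. A summit within 5 kb was found for 63 of the 98 V genes with the octamer and for 74 of the 138 without it. These pooled counts mix loci, as nearly all V genes with the octamer are immunoglobulin genes. Within IGH the counts were 25 of 41 with it and 5 of 8 without. They were 23 of 28 and 5 of 9 in IGL, and 14 of 27 and 7 of 17 in IGK. Of the 22 genes for recombination enzymes, joining factors and lymphoid transcription factors, 11 had a summit within 5 kb of the start (50%), near the 48.4% of protein-coding genes. The highest belonged to BCL11B, a factor of T-cell commitment, with 25.6, and NHEJ1, a joining factor, with 22.2. RAG1, a subunit of the recombinase, had a summit of 5.80 at 39 bases before its start, while RAG2, the other subunit, and DNTT, which adds nucleotides at the junctions, had none within 5 kb.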

How the data were processed

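Of 4 ChIP-seq libraries, 1 was analysed, that of RAD21 in untreated wild-type HCT116, from its peak list. The authors trimmed reads with Trimmomatic 0.39, aligned them to GRCh38 with Bowtie2 2.5.3, removed duplicates with Picard and called peaks with MACS2 2.2.9.1 against Input (effective genome size 2805636231, q-value threshold 0.05). No mapping quality filter is stated for the calling, nor which Input served as control. The deposited list gives per peak a score, which was not used, the fold enrichment (a ratio to the local background), and the −log10 p-value and −log10 q-value as the authors' MACS2 wrote them.

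Fragments and background at the summit were recovered from fold enrichment and p-value and came out whole for 56839 of 56853 peaks, with a tolerance of 0.05 of a step. The lowest background, the floor, was 5.90 fragments. A CTCF matrix of 20 positions was learnt on summits outside chromosomes 2, 7, 14 and 22. Its threshold of 10.468 bits passed 1% of windows 5 kb from summits, and both strands were searched. Heptamers were sought in the 60 bases after the V gene with up to 2 mismatches, and nonamers with up to 4, beyond a spacer of 12 or 23 bases give or take 1. Exact copies of 100-base sequences were counted on both strands of the assembly. Fragment recovery, motif search and copy counts were tested on simulated or planted data.

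No test was made, as there was 1 library. Members and lists were chosen with earlier results of these data known. Named genes are the 5 V genes per locus with the highest summit within 5 kb, the orphons, the 3 highest peaks per locus, the border peaks and the highest of the recombination list. Genes with a summit or matrix match within 500 bases, family members at recurring positions, and RAG1, RAG2 and DNTT were named after their values were seen. Alternatives were stricter q-values, fold, background and uniqueness limits, other distances and extensions and other motif definitions. Computations used scipy 1.17.1, pandas 2.3.3, numpy 2.4.6, numba 0.67.0 and matplotlib 3.10.9 under Python 3.11.15.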

Additional observations from a re-analysis of the deposited data

How the results depend on the processing

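The count of 234 locus peaks stayed within 1.5 times under all 10 alternatives, between 206 with summits whose 100-base sequence occurs once and 262 with loci drawn from all segments. The count of 137 V genes near a summit fell to 69 at 1 kb and 86 at 2 kb, and was 229 of 407 when V pseudogenes were included. Its other 6 alternatives gave 124 to 187. The share of peaks with a motif was 83.8% within 100 bp, 58.5% for the consensus with 1 mismatch and 23.1% for the exact consensus, against 60.8%, 38.7% and 11.5% of all peaks. The share of motifs on the V gene strand stayed between 88.8% and 89.8%. The 61 V genes with a summit within 500 bases on either side became 48 to 72 under 5 alternatives chosen after seeing the data. Of 114 values per locus, 12 moved by more than 1.5 times, 8 of them lower, among them IGK, where 27 of 48 peaks and 12 of 21 V genes remained with summits whose sequence occurs once.

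No replicate could be left out, and no paired analysis was possible because each group has 1 library. Without a second library the spread of fold enrichment between cultures is unknown. Low peaks rest on few fragments, with 19 at IGHV3-53, and a V gene without a listed summit may hold signal below the threshold of the peak caller.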
